A study of Mus musculus with 4 samples.

Results

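Arpin, the WASP gene *Was* and the Arp2/3 complex were followed in ILC87-Ik1-ER cells, in which Ikaros can be switched on by a ligand. The members are 10 genes: *Arpin*, the activator gene *Was*, and 8 subunit genes of the Arp2/3 complex, *Actr2*, *Actr3*, *Arpc1a*, *Arpc1b*, *Arpc2*, *Arpc3*, *Arpc4* and *Arpc5*. Of these, 8 were read by a probe set that the array annotation gives exactly 1 gene symbol, among 19938 such genes on the arrays, and *Actr2* and *Arpc3* were not analysed here. *Arpin* was chosen by its measured decrease on these same arrays, the 6th largest of all genes, and the other members were chosen around it as the complex it acts on. The differences of the members are therefore given as a description, with standard errors and intervals, and their calls in the fit over all genes are counted without anything being read from them.

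ILC87 is a T-cell line without Ikaros, grown from a thymic tumour of an Ikarosf/f Lck-cre+ mouse, in which the Lck promoter drives Cre in the T lineage, and its strain is labelled C57BL/6, although the study's methods give mice of this genotype a mixed background of C57Bl/6 and a further strain. The cells of every array carried Ik1-ER, full-length Ikaros-1 joined to the ligand-binding part of the oestrogen receptor, from a MigR1 retrovirus with a GFP reporter, and came from 1 stable line of sorted GFP-positive cells. In 2 samples 100 nM 4-hydroxytamoxifen (4OHT) was given for 24 h, and in 2 samples the vehicle ethanol (EtOH) was given for the same time. Cells lacking Ik1-ER were not given 4OHT on any of the arrays, so that effects of the ligand itself and of Ik1-ER cannot be told apart. Nothing states that the samples of a treatment were grown as separate cultures, and the errors then cover the scatter of these samples alone, which may be technical.

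Branched actin networks push the cell membrane forward and build the contact zone between a T cell and its partner. The Arp2/3 complex starts each branch: it binds the side of an existing filament, and its Arp2 and Arp3 subunits, which resemble actin, form the base of a new one. By itself it is nearly inactive and needs nucleation-promoting factors, among them WASP, which Cdc42 switches on in blood cells, and the WAVE proteins, which Rac switches on. Arpin is an inhibitor that responds to Rac and carries an acidic tail like that of the activators, with which it competes for the complex.

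*Arpin* (mouse Entrez gene 70420) lies on the minus strand of chromosome 7 in assembly GRCm38.p6, at chr7:79925359-79935264. The 250 bases before its annotated start, chr7:79935265-79935514 on the minus strand, are shown with those before *Was*, chrX:8090492-8090741 on the minus strand, because the induced protein is a DNA-binding factor with a GGAA-type core and these were the members with the most matches to such letters. Both are written 5′ to 3′ from RefSeq (GRCm38.p6), and capitals mark matches on either strand to GGGAA and to the pair of motifs AGGAAA and AGGAAG, which were counted together; matches could overlap.

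*Arpin*: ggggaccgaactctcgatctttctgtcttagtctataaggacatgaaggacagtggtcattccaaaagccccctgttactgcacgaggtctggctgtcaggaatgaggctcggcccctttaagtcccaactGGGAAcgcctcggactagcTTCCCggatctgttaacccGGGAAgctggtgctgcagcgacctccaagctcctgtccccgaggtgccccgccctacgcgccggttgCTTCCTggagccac
*Was*: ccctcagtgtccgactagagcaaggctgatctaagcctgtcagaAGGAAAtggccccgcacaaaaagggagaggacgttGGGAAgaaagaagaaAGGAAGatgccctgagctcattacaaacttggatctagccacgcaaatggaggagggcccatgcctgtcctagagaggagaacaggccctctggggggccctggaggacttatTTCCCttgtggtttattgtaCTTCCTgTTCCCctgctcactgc

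The window of *Arpin* held 3 matches to GGGAA and 1 to AGGAAA or AGGAAG, and that of *Was* held 3 and 3. The other 8 windows held at most 1 match to each, and those of *Actr2*, *Actr3*, *Arpc1a* and *Arpc4* held none. Of 32851 promoter windows of this length, 56.2% held GGGAA at least once and 5.9% at least 3 times, and 46.6% and 4.3% held AGGAAA or AGGAAG as often. A match describes the letters alone, and binding was not measured on these arrays. The long non-coding RNA gene *5430400D12Rik* lies on the plus strand and shares 919 bases with the 3′ end of *Arpin*, and a further one, *Gm31966*, starts 175 bases before *Arpin* on the opposite strand. Neither was measured by a probe set of its own symbol, and the place of the *Arpin* probes within the gene was not stated.

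The arrays are Affymetrix Gene ST 1.0, and the values are log2 RMA values, which have been background-corrected and quantile-normalized by the authors. Pearson's r over probe sets, given as a description since probe sets are no replicates, was 0.996 within EtOH, 0.994 within 4OHT and 0.989 to 0.99 between treatments. As a check of the T-lineage label, all 10 measured T-lineage markers (*Lck* and *Tcf7* were not analysed here) had mean log2 values of 10.01 to 13.14. At an adjusted p under 0.05 from limma, 1 of them, *Cd3d*, was lower with 4OHT and none was higher. Both 4OHT arrays lay below both EtOH arrays for 6 of the 10 and above them for 4, beside 24.5% and 32.1% of all genes. Mean levels of the 4 arrays lay between 5.75 and 5.88 over 9 B-cell markers, between 6.24 and 6.31 over 12 myeloid markers, between 5.82 and 6.06 over 8 NK-cell markers, between 6.71 and 6.78 over 3 erythroid markers, and between 7.60 and 7.71 over 10 stromal and epithelial markers. Within the NK-cell list are 2 genes that cytotoxic T cells use as well: *Gzma* (granzyme A) stood at 11.81 and 11.62 with EtOH and 11.83 and 12.25 with 4OHT, and *Prf1* (perforin) at 7.06 and 6.68 with EtOH and 7.71 and 7.74 with 4OHT (log2 difference 0.86, adjusted p = 0.0605 from limma). Other markers stood well above the mean of their list too. In the stromal and epithelial list *Pdgfrb* had 11.35 and 11.50 with EtOH and 9.54 and 9.46 with 4OHT. With EtOH its values were within the range of the T-lineage markers, although levels of different genes, here and across these lists, are not comparable. *Pecam1* of the stromal and epithelial list lay between 9.50 and 9.92, and *Cd68* of the myeloid list between 8.24 and 8.71. Among these lists of other cell types only *Lyz2* (log2 difference −1.24) and *Pdgfrb* (−1.92) were called lower and *Itgam* (0.68) higher. The part of all these genes in the results was not tested. In bulk samples, fewer cells with a transcript and less of it per cell cannot be told apart.

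*Arpin* mRNA fell to a low level after 24 h of 4OHT. Its log2 values were 9.57 and 9.72 on the EtOH arrays and 6.82 and 6.59 on the 4OHT arrays. Both 4OHT arrays lay far below both EtOH arrays, and the smallest difference between an array of one treatment and an array of the other was 2.75 on the log2 scale. The mean was 9.64 ± 0.11 with EtOH and 6.71 ± 0.16 with 4OHT (SD, n = 2 arrays each), a log2 difference of −2.94 with a standard error of 0.11, or a 7.66-fold lower level. The 95% interval of the difference in the limma fit ran from −3.23 to −2.64. With 4OHT the probe set lay below the array medians, and no detection call was given with the values, so that 7.66 is a lower bound if the remaining signal is background.

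**Figure D1:**
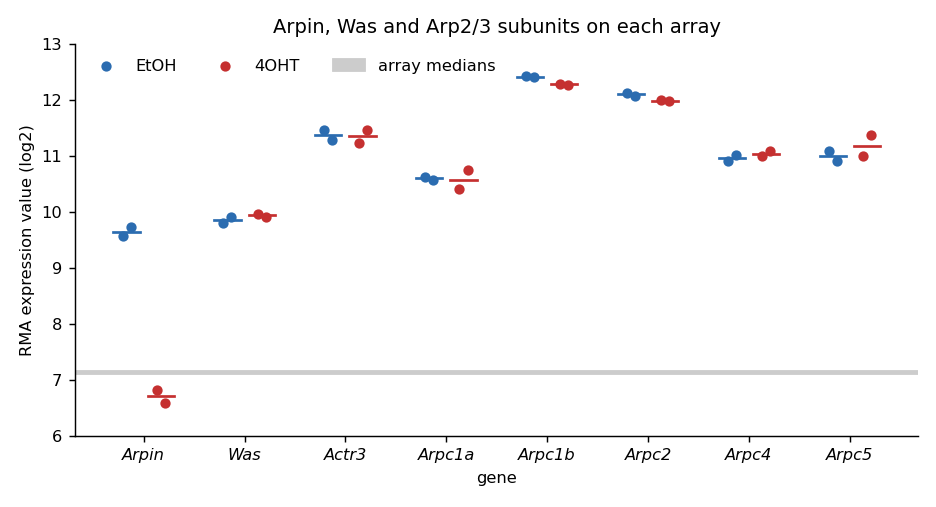
RMA expression values (log2) of the 8 measured members on each array, with EtOH arrays in blue, 4OHT arrays in red, short lines at the mean of each treatment and a grey band at the array medians. Both 4OHT arrays of *Arpin*, at 6.82 and 6.59, sit below the band, and those of the other 7 genes stay near their EtOH arrays; heights of different genes are not comparable.

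None of the measured subunits of the complex approached the difference of *Arpin*, and nothing is read from this contrast. The log2 differences of the 6 measured subunit genes lay between −0.14 and 0.19, with a median of −0.024, against a median of 0.031 over all 19938 genes. The widest of their 95% intervals reached from −0.22 to 0.60, and no interval of a subunit went below −0.36. Since *Arpin* was chosen by its decrease, nothing is read from its distance to these intervals. For 4 of the 6 the arrays of the treatments overlapped, as for 8658 of all 19938 genes, and nothing is read from this count.

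*Actr3*, which encodes the actin-related Arp3, had values of 11.46 and 11.29 with EtOH and 11.23 and 11.47 with 4OHT. The highest and the lowest array both belonged to 4OHT, and the log2 difference was −0.028 (standard error 0.12). *Arpc2* and *Arpc4* encode the subunits that hold the complex together and contact the existing filament. *Arpc2* gave 12.13 and 12.08 with EtOH and 11.99 and 11.98 with 4OHT, a log2 difference of −0.12 (standard error 0.071). Both 4OHT arrays were lower, by a small step. *Arpc4* gave 10.90 and 11.03 with EtOH and 11.00 and 11.08 with 4OHT, a log2 difference of 0.079 (standard error 0.084), with overlapping arrays.

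The subunit ARPC1 exists in alternative forms, of which ARPC1B prevails in blood cells. *Arpc1b* had values of 12.43 and 12.40 with EtOH and 12.29 and 12.27 with 4OHT, so that both 4OHT arrays were lower, and the log2 difference was −0.14 (standard error 0.070). A dimmer probe set of the same gene gave 12.29 and 12.22 with EtOH and 12.14 and 12.10 with 4OHT, with the same log2 difference of −0.14. Both probe sets carry the same accessions in the annotation, and whether one of them reads a near-identical copy elsewhere in the genome was not stated. *Arpc1a* had values of 10.63 and 10.57 with EtOH and 10.41 and 10.74 with 4OHT. The 4OHT arrays lay on both sides of the EtOH arrays, and the log2 difference was −0.021 (standard error 0.13). *Arpc5*, the gene of a peripheral subunit, had values of 11.08 and 10.90 with EtOH and 10.99 and 11.37 with 4OHT, a log2 difference of 0.19 (standard error 0.15). Its 4OHT arrays differed from each other more than those of any other measured subunit, and one of them lay between the EtOH arrays. *Arpc5l*, a paralogue of *Arpc5* that is no member, had a log2 difference of 0.053 (standard error 0.12), and *Actr3b* was not analysed here.

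*Was*, which encodes the activator WASP of blood cells and is mutated in Wiskott-Aldrich syndrome, had values of 9.79 and 9.91 with EtOH and 9.96 and 9.91 with 4OHT. Both 4OHT arrays were higher, one of them almost level with the higher EtOH array, and the log2 difference was 0.086 (standard error 0.080, 95% interval −0.13 to 0.30).

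**Figure D2:**
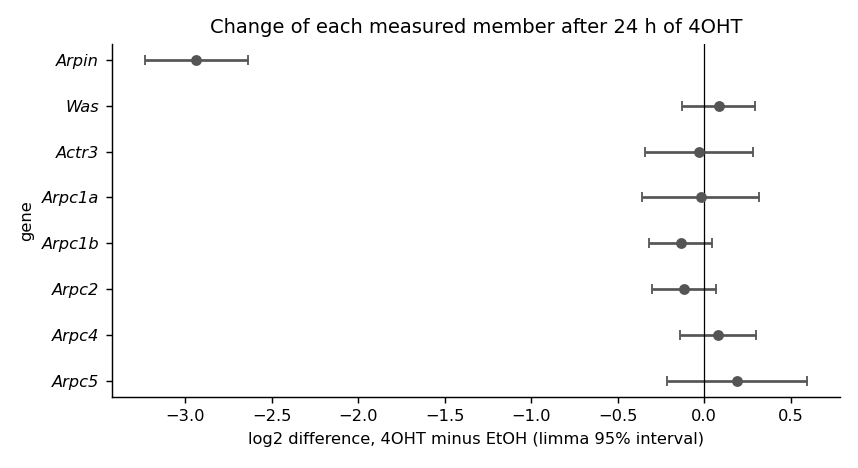
Log2 difference (4OHT minus EtOH, horizontal axis) of each measured member, with bars for the 95% interval of the limma fit. *Arpin* stands at −2.94 and the other 7 genes lie between −0.14 and 0.19, with every interval across 0.

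In the fit over all probe sets of the array, a gene was called at a Benjamini-Hochberg adjusted p under 0.05 from limma. Of the 8 measured members 1, *Arpin*, was called lower, where 2.99% of all genes were. None was called higher, where 1.23% of all genes were. At an unadjusted p under 0.05 from limma no further member was added, where 2326 of the 19938 genes were lower and 1743 higher. Both 4OHT arrays lay below both EtOH arrays for 3 members (*Arpin*, *Arpc1b* and *Arpc2*), as for 24.5% of all genes, and above them for 1 (*Was*), as for 32.1% of all genes. Since *Arpin* was chosen on this contrast, nothing is read from these counts. Without EtOH replicate 1 or without EtOH replicate 2 the fit called no gene at all, *Arpin* included.

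**Figure D3:**
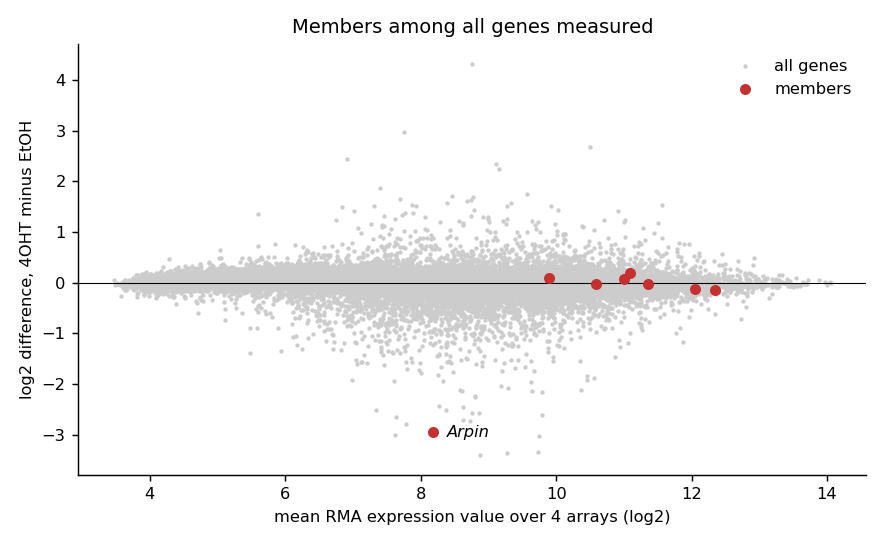
Log2 difference (4OHT minus EtOH, vertical axis) against the mean RMA value over the 4 arrays (log2, horizontal axis) for 19938 genes in grey and the 8 measured members in red. *Arpin*, at −2.94, lies at the lower edge of all genes, and the other members lie within the band around 0.

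The genes whose array values ran most like those of *Arpin* were named by the distance between the log2 values on the 4 arrays, each taken from its gene's own mean. They were *Mpzl2*, an adhesion molecule gene (distance 0.26), the non-coding *Lncenc1* (0.37), the E-cadherin gene *Cdh1* (0.37), the Rac activator gene *Dock1* (0.37) and the p120 catenin gene *Ctnnd1* (0.39), with log2 differences of −3.02, −3.01, −2.74, −2.57 and −2.56. With 4 arrays, such likeness says mainly that the genes fell by a similar amount.

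None of the measured neighbours of *Arpin* on chromosome 7 fell by as much. Since *Arpin* was chosen by its decrease, nothing is read from this contrast. *Ap3s2*, which encodes a subunit of the adaptor complex AP-3, starts 4718 bases beyond the 3′ end of *Arpin* on the same strand. It had values of 9.87 and 10.04 with EtOH and 9.80 and 9.69 with 4OHT, so that both 4OHT arrays were lower. The log2 difference was −0.21 (adjusted p = 0.342 from limma). Beyond it *Anpep*, a membrane aminopeptidase gene, was dim, with a log2 difference of 0.076 (adjusted p = 0.728 from limma). On the other side *Zfp710*, which starts 89549 bases away, had a log2 difference of 0.024 (adjusted p = 0.892 from limma). *Idh2*, which encodes the mitochondrial isocitrate dehydrogenase, followed at 159580 bases. It gave 11.24 and 11.19 with EtOH and 10.51 and 10.56 with 4OHT. This was a log2 difference of −0.67 (adjusted p = 0.0257 from limma), and *Idh2* was the one of these 4 neighbours that fell.

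Genes that act on the Arp2/3 complex or beside it were examined in 9 lists taken by function, of which 72 of 76 genes were measured (*Actr3b*, *Cyfip1*, *Fmnl3* and *Actg1* were not analysed here). Of these 72 genes, 5 fell and 4 rose at an adjusted p under 0.05 from limma, and the other 63 were not called. The shares were 6.94% lower and 5.56% higher, beside 2.99% and 1.23% of all genes. The listed genes were brighter than most, and 4 of the 61 with a mean above 8 fell and 4 rose, or 6.56% each way, beside 5.14% and 2.15% of the 8242 genes as bright. Their median log2 difference was 0.025, against 0.031 over all genes. The genes of 8 of the 9 lists are described by role.

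**Figure D4:**
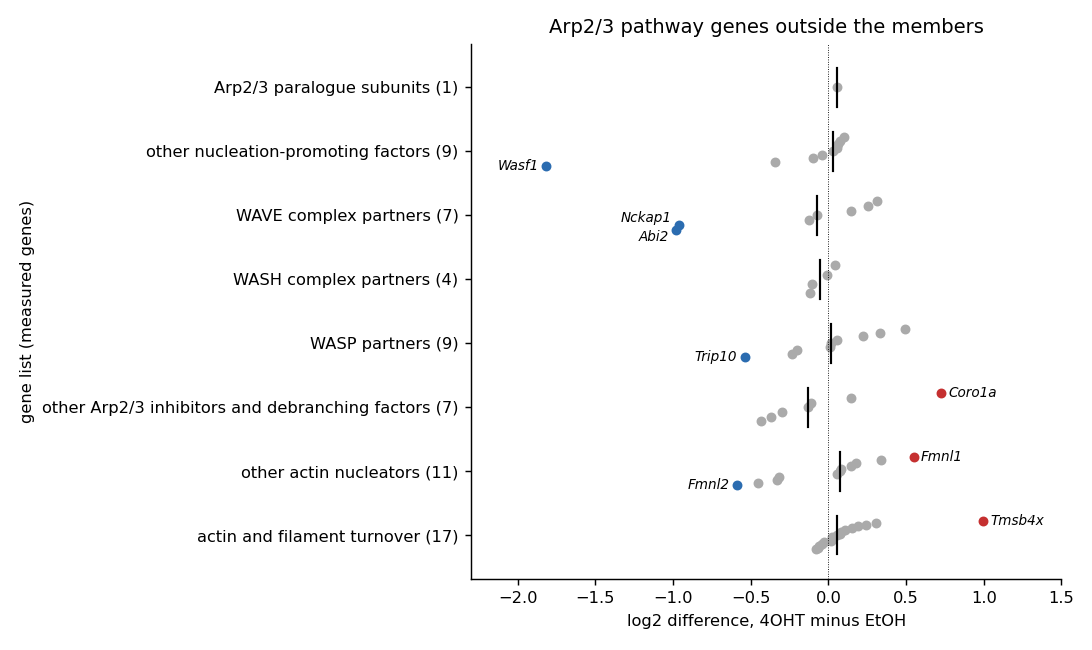
Log2 difference (4OHT minus EtOH) of each measured gene of 8 of the 9 lists, with the number of genes in brackets. Points are genes, blue if called lower, red if called higher and otherwise grey; black lines show list medians, which lie between −0.13 and 0.071; *Wasf1*, at −1.82, stands farthest from 0.

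Among the other nucleation-promoting factors, 1 of 9 genes fell and none rose (list median 0.027). *Wasf1*, which encodes WAVE1, had values of 9.20 and 9.13 with EtOH and 7.41 and 7.27 with 4OHT. Both 4OHT arrays lay just above the array medians and far below both EtOH arrays. The level was 3.53-fold lower (log2 difference −1.82, standard error 0.085, adjusted p = 0.0081 from limma). *Wasf2*, the gene of WAVE2, which is the main WAVE protein of blood cells, had 11.20 and 11.31 with EtOH and 11.24 and 11.18 with 4OHT, with overlapping arrays. Its log2 difference was −0.04 (95% interval −0.25 to 0.17; adjusted p = 0.827 from limma). *Wasf3* was dim on every array (6.68 to 6.78). *Wasl*, the gene of the broadly expressed N-WASP, and *Hcls1*, which encodes the cortactin-like HS1 of blood cells, had log2 differences of 0.10 and 0.056 (adjusted p = 0.617 and 0.771 from limma).

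WAVE proteins act within a complex with a CYFIP, a NAP1-type, an ABI and a BRK1 subunit. Of 7 such partner genes 2 fell and none rose (list median −0.073). *Nckap1*, the gene of NAP1, had 9.33 and 9.43 with EtOH and 8.38 and 8.46 with 4OHT, a 1.95-fold lower level (log2 difference −0.96, standard error 0.081, adjusted p = 0.0168 from limma). *Abi2*, the gene of an ABI adaptor, had 10.63 and 10.75 with EtOH and 9.66 and 9.76 with 4OHT, a 1.97-fold lower level (log2 difference −0.98, standard error 0.087, adjusted p = 0.0174 from limma). In both genes the treatments were clearly apart. *Nckap1l*, which encodes HEM1, the counterpart of NAP1 in blood cells, had 10.94 and 10.99 with EtOH and 11.26 and 11.29 with 4OHT. These 4OHT arrays were both higher, and the log2 difference was 0.31 (95% interval 0.12 to 0.50; adjusted p = 0.115 from limma). *Cyfip2* had a log2 difference of 0.25 and *Brk1* one of −0.073 (adjusted p = 0.205 and 0.634 from limma). *Abi1* and *Abi3*, given here to complete the complex, had log2 differences of −0.12 and 0.14 (adjusted p = 0.436 and 0.488 from limma). Whether the differences of paralogous genes differ from each other was not tested. When any 1 array was left out, *Nckap1* and *Abi2* were not called, at log2 differences of −1.01 to −0.91 and −1.05 to −0.92. *Wasf1* was not called without EtOH replicate 1 or without EtOH replicate 2, at log2 differences of −1.78 and −1.85 (adjusted p = 0.112 and 0.133 from limma), fits in which no gene at all was called.

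**Figure D5:**
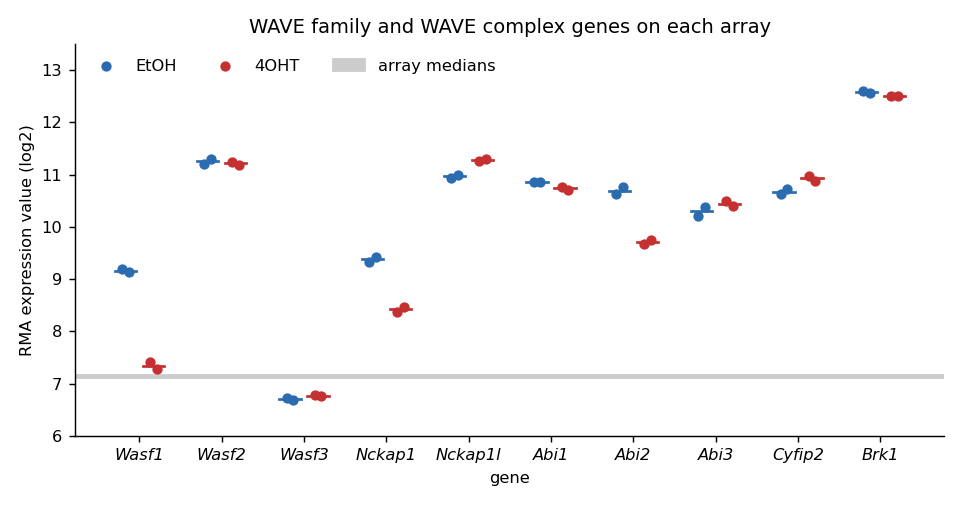
RMA expression values (log2) of the WAVE genes and their partners on each array, with EtOH arrays in blue, 4OHT arrays in red, short lines at the means and a grey band at the array medians. *Wasf1*, *Nckap1* and *Abi2* are lower on both 4OHT arrays, with log2 differences of −1.82, −0.96 and −0.98, beside −0.04, −0.073 and −0.12 for *Wasf2*, *Brk1* and *Abi1*.

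Among the partners of WASP, 1 of 9 genes was called lower and none higher (list median 0.018). *Trip10*, which encodes the membrane-bending CIP4, had 8.79 and 8.73 with EtOH and 8.19 and 8.25 with 4OHT, a log2 difference of −0.54 (standard error 0.074, adjusted p = 0.0405 from limma). *Wipf1*, which encodes WIP, the protein that stabilizes WASP, had a log2 difference of 0.33, and *Nck2*, which encodes an adaptor, one of −0.24 (adjusted p = 0.108 and 0.198 from limma). *Fnbp1*, a relative of *Trip10*, had −0.20 (adjusted p = 0.353 from limma). None of the 4 measured partner genes of the endosomal WASH complex was called, and their log2 differences lay between −0.12 and 0.044.

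Beside *Arpin*, 7 other genes that inhibit the complex or take its branches apart were measured, of which 1 was called higher and none lower (list median −0.13). *Coro1a*, which encodes the blood-cell coronin that binds actin filaments and the complex, had 10.80 and 10.88 with EtOH and 11.58 and 11.56 with 4OHT, a 1.65-fold higher level (log2 difference 0.72, standard error 0.075, adjusted p = 0.0229 from limma). *Coro1b*, which encodes a coronin that acts at branch points, had 11.86 and 11.96 with EtOH and 11.48 and 11.47 with 4OHT, so that its arrays moved the other way. Its log2 difference was −0.43 (95% interval −0.64 to −0.23; adjusted p = 0.0705 from limma). *Ap1ar*, which encodes gadkin, a protein that sequesters the complex, had a log2 difference of −0.30, and *Gmfb*, which encodes a debranching factor, one of −0.13 (adjusted p = 0.145 and 0.725 from limma). *Gmfg* of the same list had 9.65 and 9.86 with EtOH and 9.35 and 9.41 with 4OHT. Its log2 difference was −0.37 (95% interval −0.63 to −0.11, adjusted p = 0.1505 from limma), and it was not called.

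Nucleators that build unbranched filaments changed in both directions, with 1 of 11 genes lower and 1 higher (list median 0.071). The formin genes *Fmnl1* and *Fmnl2* are paralogues. *Fmnl1*, which is typical of blood cells, had 9.74 and 9.69 with EtOH and 10.26 and 10.26 with 4OHT, a log2 difference of 0.55 (standard error 0.071, adjusted p = 0.0368 from limma). *Fmnl2* had 7.85 and 7.81 with EtOH and 7.25 and 7.23 with 4OHT, near the array medians, a log2 difference of −0.59 (standard error 0.071, adjusted p = 0.0323 from limma). The formin genes *Diaph1*, *Diaph2* and *Diaph3* had log2 differences of 0.34, −0.46 and 0.15 (adjusted p = 0.0963, 0.185 and 0.565 from limma).

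Of 17 genes of actin and of filament turnover, 1 rose and none fell (list median 0.057). *Actb*, the gene of β-actin, had a log2 difference of 0.057 (95% interval −0.13 to 0.24), and *Pfn1* (profilin) and *Cfl1* (cofilin) had 0.15 and 0.081 (adjusted p = 0.4 and 0.606 from limma). *Tmsb4x*, which encodes thymosin β4, a protein that holds actin monomers, had 9.26 and 8.87 with EtOH and 10.02 and 10.11 with 4OHT. Its EtOH arrays differed by more than those of the other genes called here, and the log2 difference of 0.99 (standard error 0.15) passed narrowly, with an adjusted p of 0.0496 from limma. Of the 9 called genes, *Wasf1* alone was called in a fit without 1 array, and fits without an EtOH array called no gene. The log2 differences in these fits lay between 0.68 and 0.77 for *Coro1a*, 0.52 and 0.58 for *Fmnl1*, −0.61 and −0.57 for *Fmnl2*, −0.57 and −0.51 for *Trip10* and 0.80 and 1.19 for *Tmsb4x*.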

How the data were processed

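RNA of ILC87-Ik1-ER cells (2 EtOH and 2 4OHT samples, by the labels) was read on Affymetrix Gene ST 1.0 arrays. The authors deposited log2 values per probe set. Affymetrix Expression Console 1.1 and RMA are credited to the submitters' processing notes. RMA's quantile step removes shifts common to most genes, and differences of dim genes are compressed in RMA values. The genome build of the probe sets was not given in the sources used here.

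Treatments were compared on the deposited log2 values in R 4.3.3 with limma 3.58.1 (lmFit, eBayes; two-sided; no filter or block; 2 residual and 2.66 prior degrees of freedom), with Benjamini-Hochberg adjustment over all probe sets. The code was also run on simulated data in which 200 probe sets had known changes, and the outcome is not given here. Symbols were taken from RefSeq by Entrez number where it was found there (21698 of 21789 probe sets with 1 symbol), whether or not the symbol changed. The brightest probe set with 1 symbol stood for a gene. Members and lists were chosen with earlier results of these data known. Named were all members, called list genes, the 3 brightest uncalled genes of a list, the 2 measured neighbours on each side and the 5 nearest patterns, leaving out gene models and 1 pathway list, which is counted in the totals and not reported here. Promoters came from RefSeq GRCm38.p6. *Wasf3*, *Abi1*, *Abi3*, *Pstpip1* and *Gmfg* were added after their values were seen. An exact permutation test of 2 against 2 arrays cannot go below p = 0.33. Array number limits the precision. Alternatives are given in the closing section.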

Additional observations from a re-analysis of the deposited data

How the results depend on the processing

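The log2 difference of *Arpin* was −2.96 to −2.94 under the other scalings and −3.05 to −2.82 without 1 array, a range that the gap between the 2 arrays of a treatment fixes. Against 597 lower and 246 higher genes, and 5 lower and 4 higher pathway genes, the fit over probe sets with 1 symbol gave 1739 and 1002, and 12 and 10, and averaging probe sets per gene gave 1807 and 1067, and 11 and 10. Their prior degrees of freedom were 8.44 and 9.11, against 2.66. Leaving out 1 array at a time gave 0 to 178 lower and 0 to 63 higher genes in all, 0 to 1 members lower, and 0 to 1 lower and 0 to 0 higher pathway genes. With the sample number as a replicate block, 25 genes were lower and 5 higher, and 1 pathway gene (*Wasf1*) was lower and 0 higher. Samples of the same number tended only weakly to deviate in opposite directions (r = −0.134 over probe sets). A crossed pairing, chosen after seeing the data, gave 389 and 146 genes, and 3 and 2 pathway genes. A second quantile normalization lost *Trip10* (adjusted p = 0.0602 from limma) and added *Pstpip1*, with 4 pathway genes lower and 5 higher. The arrays hold no detection calls, so that falls of dim genes could not be sized.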
